A study of Mus musculus with 12 samples.

Results

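The spindle, kinetochore and chromosome condensation genes are the machinery with which a cell packs its chromosomes, attaches them to microtubules and divides. The set holds 47 mouse genes chosen by function, with Cdk1 and its cyclins left out. The choice was made with earlier results of these data known. They are 47 of the 18193 genes that had a probe set annotated to exactly 1 symbol, and a gene with several probe sets was read from the brightest, by mean log2 signal over all 12 arrays. Of the 47 members, 45 were among the 12083 genes tested, and Plk1 and Kif18a were not, because their probe sets lay above the array median on fewer than 3 arrays.

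Haematopoietic stem cells (HSCs), which renew all blood lineages, were purified from the bone marrow of mice by FACS, and their RNA was hybridised to Affymetrix arrays. The 4 groups of 3 biological replicates were Nras GFPhigh and Nras GFP- HSCs from NrasG12D/+ mice, and wild-type GFPhigh and wild-type GFP- HSCs from wild type mice. All mice were given doxycycline for 6 weeks and were followed for 12 weeks after it was withdrawn. The labels call GFPhigh cells quiescent and GFP- cells cycling, since a label made under doxycycline is diluted as cells divide. The age of the mice, the promoters behind the label and the Nras allele, and any pooling of animals are not stated in the labels. The labels call the replicates biological but do not say that each came from its own animal, so p-values measure the spread between these samples.

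Before division, condensin and topoisomerase II compact and untangle the chromosomes, and a kinetochore is built on each centromere. The Ndc80 complex of the outer kinetochore grips microtubules, and the spindle checkpoint holds back the anaphase-promoting complex (APC/C) until every chromosome is attached. Securin is then destroyed, separase parts the sister chromatids, and the central spindle directs the cut between the daughter cells. Most of these genes are transcribed late in the cell cycle, and in adult marrow few HSCs are in division at any time.

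Promoters of genes expressed late in the cell cycle are known to carry CCAAT boxes and a cell cycle homology region with the letters TTTGAA. In 41 members the RefSeq tables of GRCm38.p6 gave 46 promoter windows, each of 300 bases from 250 before the transcription start to 50 after it. Letters were searched on both strands (CCAAT or ATTGG, and TTTGAA or TTCAAA), and the 2 motifs overlapped in 1 window, that of Cdca8. CCAAT stood in 36 of the 46 windows (78.3%), against 37.4% of all 32851 windows in the table and 38.2% of the 21263 of protein-coding genes. TTTGAA stood in 31 (67.4%), against 17.9% of all windows. Both were found in 28 windows (60.9%, against 6.95% of all) and neither in 7 (15.2%, against 51.7%). A letter match is a description and not a shown binding site. The windows of 6 members follow, chosen to show the arrangements, with the letters of both motifs in capitals and each sequence 5′ to 3′ on the gene's minus strand.
Mki67: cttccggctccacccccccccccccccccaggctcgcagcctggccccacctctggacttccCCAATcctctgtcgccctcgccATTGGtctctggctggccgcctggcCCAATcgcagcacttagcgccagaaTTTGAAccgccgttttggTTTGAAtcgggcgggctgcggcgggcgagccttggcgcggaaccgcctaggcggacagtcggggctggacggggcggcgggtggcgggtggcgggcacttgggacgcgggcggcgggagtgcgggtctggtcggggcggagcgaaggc
Top2a: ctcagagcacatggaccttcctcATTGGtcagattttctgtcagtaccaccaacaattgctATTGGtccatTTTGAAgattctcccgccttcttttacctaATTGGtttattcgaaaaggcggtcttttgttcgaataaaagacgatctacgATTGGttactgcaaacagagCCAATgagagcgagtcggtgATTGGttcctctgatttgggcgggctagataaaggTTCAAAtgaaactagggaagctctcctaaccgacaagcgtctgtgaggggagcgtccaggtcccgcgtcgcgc
Hmmr: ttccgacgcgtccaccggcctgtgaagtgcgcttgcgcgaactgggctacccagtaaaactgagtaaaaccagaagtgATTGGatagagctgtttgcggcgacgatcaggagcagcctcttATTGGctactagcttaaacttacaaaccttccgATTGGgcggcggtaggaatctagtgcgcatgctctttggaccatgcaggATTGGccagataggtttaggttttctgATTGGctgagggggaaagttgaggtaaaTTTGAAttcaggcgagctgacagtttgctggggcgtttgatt
Racgap1: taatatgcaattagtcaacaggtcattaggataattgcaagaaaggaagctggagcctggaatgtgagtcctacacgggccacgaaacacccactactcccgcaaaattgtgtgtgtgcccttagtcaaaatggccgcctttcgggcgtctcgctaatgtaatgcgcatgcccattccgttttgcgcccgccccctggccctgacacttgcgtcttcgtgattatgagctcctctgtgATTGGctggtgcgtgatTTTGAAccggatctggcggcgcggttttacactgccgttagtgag
Bub1: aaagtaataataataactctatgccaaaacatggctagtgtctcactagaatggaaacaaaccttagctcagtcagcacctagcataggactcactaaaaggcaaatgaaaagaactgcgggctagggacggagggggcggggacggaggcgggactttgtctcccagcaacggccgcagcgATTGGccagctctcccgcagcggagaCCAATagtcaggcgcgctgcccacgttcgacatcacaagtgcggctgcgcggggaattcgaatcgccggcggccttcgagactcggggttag
Ncaph: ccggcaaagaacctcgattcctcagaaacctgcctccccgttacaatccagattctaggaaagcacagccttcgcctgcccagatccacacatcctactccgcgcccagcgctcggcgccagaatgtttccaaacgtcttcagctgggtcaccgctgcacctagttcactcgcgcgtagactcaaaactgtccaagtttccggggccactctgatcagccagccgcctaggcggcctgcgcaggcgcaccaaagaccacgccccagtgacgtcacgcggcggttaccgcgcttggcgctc

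The Mki67 window (chr7:135716330-135716629) holds its TTTGAA upstream, and that of Top2a (chr11:99024140-99024439) holds 6 CCAAT matches, more than the other windows shown. In Hmmr (chr11:40733388-40733687) and Racgap1 (chr15:99651607-99651906) a TTTGAA lies just past the start site, at bases 8 and 5, where 0 is the start-site base. Bub1 (chr2:127831810-127832109) has CCAAT but no TTTGAA, and Ncaph (chr2:127133905-127134204) has neither. Within 50 bases of the start site, TTTGAA was present in 27 of the 46 member windows (58.7%), against 4.94% of all windows and 3.9% of protein-coding ones. The 28 members with TTTGAA in a window had a median log2 difference of -1.40 between GFPhigh and GFP- HSCs, and the 13 with a window but no TTTGAA had -1.88.

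**Figure D1:**
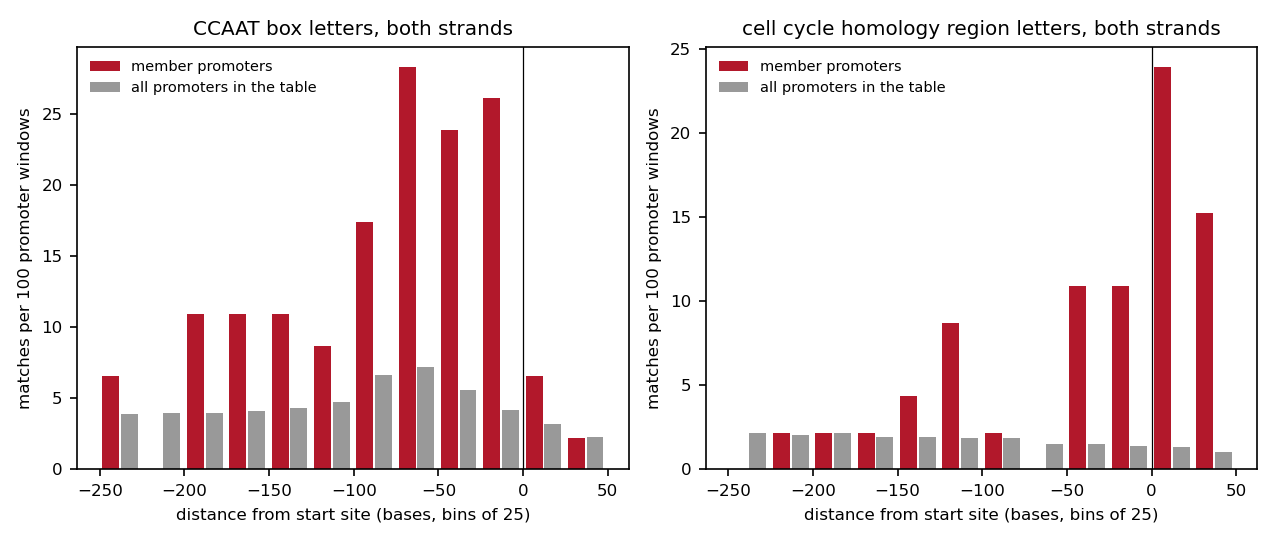
Matches per 100 promoter windows (y axis) to the CCAAT box letters (left) and the cell cycle homology region letters (right), by distance from the start site in bins of 25 bases (x axis), in the 46 member windows (red) and all 32851 windows (grey). The tallest red bars of the right panel lie just past the start site, while the grey bars stay low and flat.

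On the arrays the mitotic genes as a set stood lower in GFPhigh than in GFP- HSCs. Over both genotypes 45 of the 47 members had a lower mean log2 signal in GFPhigh HSCs, against 42.4% of all genes, and the median log2 difference of the members was -1.45, against 0.132 for all 18193 genes. A difference below -1 was found in 34 of 47 members, against 8.33% of all genes. No member passed on its own: 0 of 45 reached an adjusted p under 0.05 in limma (0% of 12083 genes), the lowest adjusted p being 0.368. At an unadjusted p under 0.05, 14 of 45 members were lower (4.51% of tested genes) and 0 were higher (4.36%), and in a fit of all genes with no filter 16 of 47 were lower (3.34% of all genes). Cenpk alone of the 47 had all 6 GFPhigh arrays below all 6 GFP- arrays (0.225% of all genes). Bulk arrays cannot tell fewer dividing cells from less RNA per cell.

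Most other probe sets of the members read the same way. The 47 members have 116 probe sets, of which 98 were lower in GFPhigh HSCs, against 44.3% of all probe sets with 1 symbol. On every probe set they have, 32 members were lower, a count for which the share over all genes was not taken. These counts include the probe sets used above, and for the 13 members with only 1 probe set they repeat the main result. Some members stated below as lower had another probe set that was higher. Their highest log2 differences were 2.10 (Bub3), 1.15 (Smc2), 1 (Tpx2), 0.98 (Kif23), 0.62 (Ckap5) and 0.57 (Zwint). Next came 0.55 (Aurka), 0.54 (Spc25), 0.49 (Incenp) and 0.47 (Kif2c), then 0.1 (Racgap1), 0.05 (Smc4) and 0.02 (Kif11). Of the 3 probe sets of Kif23 only 1 was lower. Signals ran near the array's background for some members: 6 of the tested ones (Ncapd2, Bub1, Espl1, Hmmr, Kif4 and Anln) passed the filter with fewer than 3 GFPhigh arrays above the array median, while 17 members were above it on all arrays. A gene that passed in this way needed its GFP- arrays to pass, which favours a lower GFPhigh signal. Ncapd2 and Hmmr are among those counted at an unadjusted p under 0.05. Without the 6, the count was 12 of 39 over both genotypes, 10 of 39 in Nras HSCs and 4 of 39 in wild-type HSCs. The shares of all tested genes that were lower at this p were 4.51%, 5.97% and 1.15%.

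**Figure D2:**
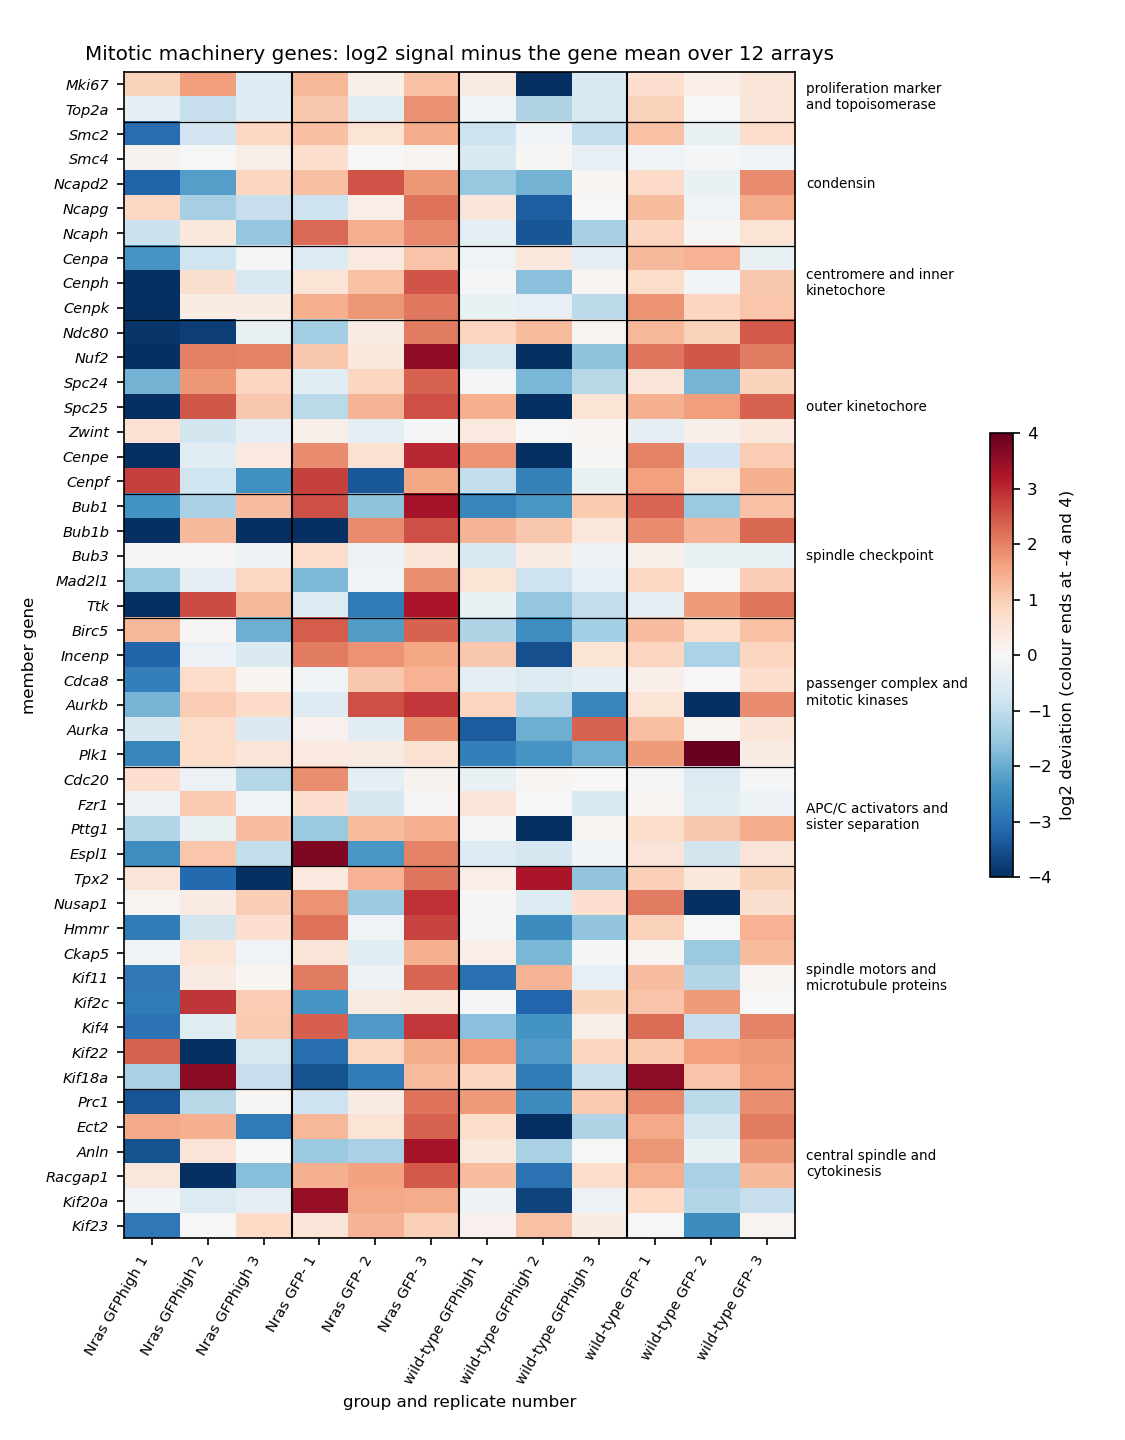
Log2 signal of each of the 47 members (y axis, by role) on each of the 12 arrays (x axis, by group and replicate number) minus that member's mean over the arrays, from blue (lower) to red (higher). Of the GFP- columns all but wild-type replicate 2 are mostly red, and among the GFPhigh columns Nras replicate 1 and wild-type replicate 2 are the bluest.

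Summed up per array as the median deviation of the 47 members from their own means, the level was -1.91, 0.04 and -0.04 in Nras GFPhigh HSCs, against 0.67, 0.34 and 1.92 in Nras GFP- HSCs. In wild-type GFPhigh HSCs it was -0.07, -1.84 and -0.20, against 1.04, -0.08 and 1 in wild-type GFP- HSCs. The groups did not overlap in Nras HSCs, and in wild-type HSCs GFP- replicate 2 lay at the level of GFPhigh replicate 1. Group means were -0.64 ± 1.10 in Nras GFPhigh and 0.98 ± 0.83 in Nras GFP- HSCs, and -0.70 ± 0.99 in wild-type GFPhigh and 0.66 ± 0.64 in wild-type GFP- HSCs (SD, n = 3 each).

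Arrays were uneven in quality. limma's array weight, lower for an array that departs more from its group, was 0.308 to 0.522 on 4 arrays (Nras GFPhigh replicates 1 and 2, Nras GFP- replicate 1 and wild-type GFPhigh replicate 2) and 0.903 to 2.46 on the other 8, so both of the lowest member levels came from arrays of low weight. Without these 4 arrays, which leaves 1 Nras GFPhigh array, 43 of 47 members were lower and the median difference was -0.92. The 3'/5' signal ratio of Gapdh, which is higher in degraded RNA, was 7.28, 2.83 and 5.7 in Nras GFPhigh HSCs, against 3.83, 3.51 and 3.32 in Nras GFP- HSCs. It was 4.17, 4.48 and 2.57 in wild-type GFPhigh HSCs, against 3.68, 3.52 and 2.6 in wild-type GFP- HSCs. The 4 highest ratios were on GFPhigh arrays, which include the 2 arrays of lowest member level, and the part of RNA quality in the label difference was not tested. Replicate 3 of each group also differs from replicates 1 and 2 in sex-linked transcripts, with Xist at 91.8 to 205.1 against 5773 to 11481. Replicates 1 and 2 alone gave a median of -1.10 (41 of 47 lower), and replicate 3 alone gave -1.48 (45 of 47 lower). Of the HSC markers, 8 of 8 measured lay above the array median on all arrays. Of 10 granulocyte markers, 6 to 10 lay above it on the Nras GFPhigh arrays and 4 to 5 on the Nras GFP- arrays. On the wild-type arrays it was 3 to 8 in GFPhigh and 4 to 8 in GFP- HSCs.

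**Figure D3:**
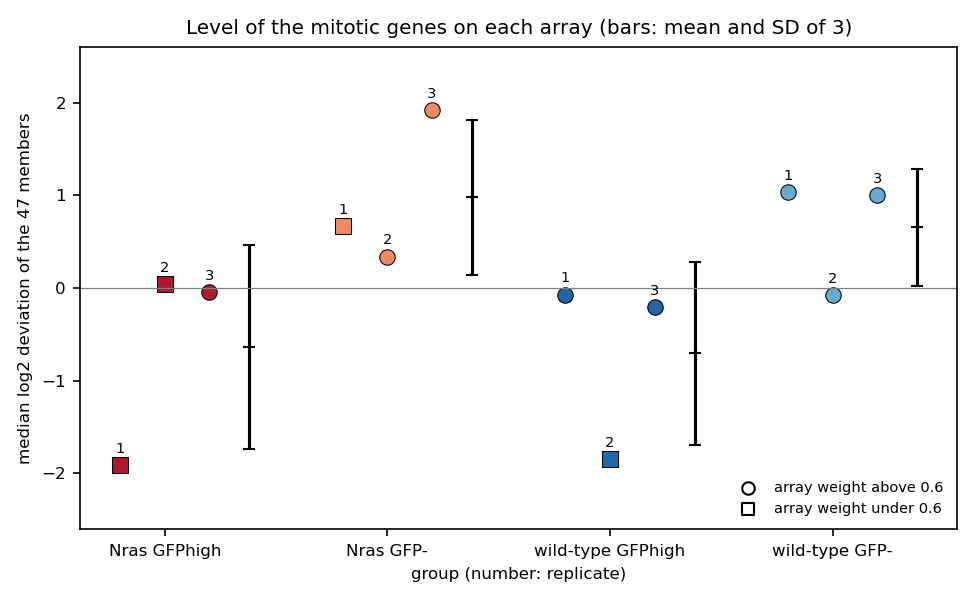
Median log2 deviation of the 47 members on each array (y axis) by group (x axis), with the replicate number above each point, squares for the 4 arrays of weight under 0.6 and circles for the others, and a bar for the mean and SD of 3. GFPhigh arrays reach at most 0.04, while 5 of the 6 GFP- arrays lie at 0.34 or above and wild-type GFP- replicate 2 at -0.08.

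The members are taken up below by role, with signals in intensity units for replicates 1, 2 and 3 of a group, and with the log2 difference of GFPhigh minus GFP- over both genotypes, its standard error (SE) and limma's adjusted p. Mki67, the source of the Ki-67 proliferation antigen that coats mitotic chromosomes, read 5951, 10165 and 2206 in Nras GFPhigh HSCs, against 7996, 3629 and 7084 in Nras GFP- HSCs. Wild-type GFPhigh HSCs read 4041, 51.6 and 2090, against 5104, 3793 and 4461 in wild-type GFP- HSCs. The groups overlapped in both genotypes, with the single low reading on a low-weight array, and the log2 difference was -1.38 ± 0.84 (adjusted p = 0.666). Top2a, the topoisomerase that untangles sister DNA, read 667, 470.4 and 614 in Nras GFPhigh HSCs, against 1856, 627 and 3142 in Nras GFP- HSCs. In wild-type GFPhigh HSCs Top2a read 783, 387 and 580.2, against 1658, 879 and 1235 in wild-type GFP- HSCs. The wild-type groups were apart and the Nras groups overlapped at Nras GFP- replicate 2, with a log2 difference of -1.27 ± 0.46 (adjusted p = 0.500).

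Condensin is a ring that compacts chromosomes, with Smc2 and Smc4 as its ATPase core. All 5 members had lower means in GFPhigh HSCs, with log2 differences from -2.62 (Ncapd2) to -0.16 (Smc4) and p under 0.05 for 3. Ncaph, the subunit that closes the ring of condensin I, read 63.6, 157 and 39.8 in Nras GFPhigh HSCs, against 553, 317 and 441 in Nras GFP- HSCs. It read 90.1, 10.9 and 46 in wild-type GFPhigh HSCs, against 212, 120.1 and 169.6 in wild-type GFP- HSCs. Each genotype's groups were apart, and the log2 difference of -2.36 ± 0.63 had the smallest p of any tested member (adjusted p = 0.368). Ncapd2, another condensin I subunit, read 14.9, 29.4 and 249 in Nras GFPhigh HSCs, against 315, 787 and 456 in Nras GFP- HSCs. Wild-type GFPhigh HSCs read 47.6, 36.7 and 144, against 232, 114 and 504 in wild-type GFP- HSCs. The Nras groups were apart and the wild-type groups overlapped at GFPhigh replicate 3, with a log2 difference of -2.62 ± 0.76 (adjusted p = 0.416). The ATPase Smc2 (-1.63 ± 0.59) and the condensin I subunit Ncapg (-1.41 ± 0.75) lay between these values. Smc4, the ATPase partner of Smc2, read 8176, 7348 and 8718 in Nras GFPhigh HSCs, against 11876, 7396 and 7864 in Nras GFP- HSCs. It read 4858, 7636 and 5830 in wild-type GFPhigh HSCs, against 6631, 6948 and 6800 in wild-type GFP- HSCs. Its groups overlapped in both genotypes, with a log2 difference of -0.16 ± 0.14 (adjusted p = 0.776).

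Cenpa, the histone H3 variant that marks centromeres, and the inner kinetochore subunits Cenph and Cenpk gave log2 differences from -3.02 to -1.12. Cenpk (chr13:104228611-104249622) read 2, 621 and 621 in Nras GFPhigh HSCs, against 1367, 1727 and 2212 in Nras GFP- HSCs. Wild-type GFPhigh HSCs read 420.4, 405 and 245, against 1748, 928 and 1091 in wild-type GFP- HSCs. Every GFPhigh array lay below every GFP- array, with a log2 difference of -3.02 ± 1.16 (adjusted p = 0.525) in which the reading of 2 weighs heavily.

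The 7 outer kinetochore members ranged from -3.91 (Nuf2) to -0.03 (Zwint), and 3 had p under 0.05. Nuf2 (chr1:169497934-169531464), which pairs with Ndc80 to bind microtubules, read 0.8, 685 and 663 in Nras GFPhigh HSCs, against 354, 227 and 1959 in Nras GFP- HSCs. In wild-type GFPhigh HSCs it read 107, 3.1 and 54.8, against 736, 931 and 709 in wild-type GFP- HSCs. The wild-type groups were far apart and the Nras groups overlapped, with a log2 difference of -3.91 ± 1.53 (adjusted p = 0.527). Ndc80 itself read 9.3, 10.1 and 112 in Nras GFPhigh HSCs, against 53.9, 174 and 582 in Nras GFP- HSCs, and the groups overlapped. The wild-type GFPhigh readings of Ndc80 were 249.5, 328 and 148, against 344, 260.5 and 752 in wild-type GFP- HSCs, again with an overlap, and the log2 difference was -1.91 ± 0.78 (adjusted p = 0.540). Zwint, an adaptor that docks the checkpoint on kinetochores, read 3472, 1379 and 1777 in Nras GFPhigh HSCs, against 2742, 1812 and 2240 in Nras GFP- HSCs. Zwint signals were 3051, 2310 and 2422 in wild-type GFPhigh HSCs, against 1761, 2666 and 3112 in wild-type GFP- HSCs. Its groups were intermixed, with a difference of -0.03 ± 0.28 (adjusted p = 0.988). Of the others, Spc25 (-2.78), Spc24 (-0.76), the plus-end motor Cenpe (-2.58) and the coiled-coil protein Cenpf (-1.50) were all lower. Low readings on Nras GFPhigh replicate 1 and wild-type GFPhigh replicate 2, both of low weight, weigh heavily in Spc25 and Cenpe. They were 1.1 and 5.8 for Spc25 and 13.4 and 4.4 for Cenpe.

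Spindle checkpoint members were lower in 5 of 5, between -2.12 (Bub1) and -0.22 (Bub3), and 0 had p under 0.05. Bub1, the kinase that recruits the checkpoint to kinetochores, read 21.2, 44.9 and 262 in Nras GFPhigh HSCs, against 664, 36.1 and 1109 in Nras GFP- HSCs. It read 17.9, 21.8 and 226 in wild-type GFPhigh HSCs, against 555, 39.5 and 250.2 in wild-type GFP- HSCs. In each genotype GFP- replicate 2 read as low as GFPhigh cells, so the groups overlapped, and the difference was -2.12 ± 1.08 (adjusted p = 0.604). Bub1b (BubR1, -1.52), the kinase Ttk (Mps1, -1.11) and Mad2l1 (Mad2, -0.56), which act with Bub1 in the checkpoint, had errors of 0.65 to 1.34.

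The chromosomal passenger complex, which corrects faulty attachments, consists of the kinase Aurkb, the scaffold Incenp, survivin (Birc5) and borealin (Cdca8), and with the kinases Aurka and Plk1 all 6 were lower, from -2.81 to -1. Incenp read 211, 1644 and 1283 in Nras GFPhigh HSCs, against 8201, 6685 and 5614 in Nras GFP- HSCs. Wild-type GFPhigh HSCs read 4034, 170.2 and 2832, against 3507, 800.3 and 3484 in wild-type GFP- HSCs. The Nras groups were apart and the wild-type groups overlapped, with a log2 difference of -1.96 ± 0.77 (adjusted p = 0.528). Birc5 read 694, 283 and 71.1 in Nras GFPhigh HSCs, against 1473, 58.7 and 1412 in Nras GFP- HSCs. In wild-type GFPhigh HSCs Birc5 read 120.2, 48.9 and 106, against 641, 445 and 615 in wild-type GFP- HSCs. Here the wild-type groups were apart and the Nras groups overlapped, with -1.88 ± 0.84 (adjusted p = 0.552). Cdca8 stood at -1.08 ± 0.51 and Aurka, the spindle pole kinase, at -1.12 ± 0.88.

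Aurkb read 39.2, 288 and 245 in Nras GFPhigh HSCs, against 101, 852 and 1015 in Nras GFP- HSCs. Wild-type GFPhigh HSCs read 262, 64.9 and 23.5, against 208, 7.3 and 529.6 in wild-type GFP- HSCs. The groups overlapped in both genotypes and the difference of -1 ± 1.10 was smaller than its error (adjusted p = 0.824). Plk1, the polo-like kinase of mitotic entry and exit, read 5, 51.9 and 44.7 in Nras GFPhigh HSCs, against 41.3, 39.8 and 47.5 in Nras GFP- HSCs. Its wild-type GFPhigh signals were 4.7, 6.1 and 8.1, against 102, 1067 and 38.2 in wild-type GFP- HSCs. The wild-type groups were apart, but 10 of the 12 arrays read Plk1 below the array median, so it was left out of the tested genes.

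Of the 4 genes of the APC/C step, 3 were lower. Pttg1 (securin), whose destruction frees separase, read 656, 1211 and 3512 in Nras GFPhigh HSCs, against 538, 3555 and 4001 in Nras GFP- HSCs. Wild-type GFPhigh HSCs read 1450, 75.2 and 1598, against 2497, 3158 and 4202 in wild-type GFP- HSCs. Only the wild-type groups were apart, with a log2 difference of -1.50 ± 0.78 over both genotypes (adjusted p = 0.611). Fzr1 (Cdh1), the APC/C activator of late mitosis and G1 that is also used outside division, read 248, 587 and 259.8 in Nras GFPhigh HSCs, against 457, 179.6 and 298 in Nras GFP- HSCs. It read 408, 281 and 189 in wild-type GFPhigh HSCs, against 308, 209 and 242 in wild-type GFP- HSCs. Its groups were intermixed (0.18 ± 0.49, adjusted p = 0.933), and Cdc20, the activator of early mitosis, stood at -0.32 and separase (Espl1) at -1.23.

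Spindle motors and microtubule proteins were lower in 8 of 9, with 1 p under 0.05. Hmmr, a microtubule-binding protein of spindle poles, read 23.7, 97.7 and 261 in Nras GFPhigh HSCs, against 741, 149 and 1060 in Nras GFP- HSCs. It read 155, 28.4 and 54.2 in wild-type GFPhigh HSCs, against 312, 161 and 429 in wild-type GFP- HSCs. The wild-type groups were apart and the Nras groups overlapped at replicate 3 of GFPhigh, with -2.35 ± 0.76 (adjusted p = 0.454). Nusap1, which ties microtubules to chromatin, read 273, 322 and 507 in Nras GFPhigh HSCs, against 882, 93.6 and 1915 in Nras GFP- HSCs. Its wild-type GFPhigh signals were 260, 175 and 407, against 1063, 1.3 and 398 in wild-type GFP- HSCs. The GFPhigh arrays lay inside the range of the GFP- arrays, and the positive difference of 0.54 ± 1.37 (adjusted p = 0.929) became -0.95 without wild-type GFP- replicate 2. The kinesins Kif11 (-1.46), which pushes the poles apart, Kif4 (-2.08) and Kif22 (-1.22), which act on chromosome arms, the depolymerase Kif2c (-0.42), the polymerase Ckap5 (-0.47) and Tpx2 (-2.07), which activates Aurora A, were lower with errors of 0.57 to 1.23. The plus-end kinesin Kif18a, not among the tested genes, stood at -0.46 ± 1.07.

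Central spindle and cytokinesis members were lower in 6 of 6, between -2.36 (Ect2, the activator of RhoA at the cleavage site) and -0.14 (Kif23), and 2 had p under 0.05. Kif20a, the motor that carries the passenger complex to the central spindle, read 751, 554 and 623 in Nras GFPhigh HSCs, against 9155, 2310 and 2270 in Nras GFP- HSCs. In wild-type GFPhigh HSCs Kif20a read 713, 62.2 and 695, against 1420, 363 and 431 in wild-type GFP- HSCs. The Nras groups were apart and the wild-type groups intermixed, with a log2 difference of -1.73 ± 0.67 (adjusted p = 0.526). Racgap1 and Kif23 form centralspindlin, the complex that bundles midzone microtubules. Racgap1 read 318, 8.9 and 70.7 in Nras GFPhigh HSCs, against 619, 710.4 and 1257 in Nras GFP- HSCs. In wild-type HSCs Racgap1 read 541, 29.9 and 372 in the GFPhigh population, against 637, 94.7 and 565 in the GFP- population. The Nras groups were apart and the wild-type groups overlapped, with a log2 difference of -2.32 ± 0.96 (adjusted p = 0.548). Kif23 read 121, 872 and 1517 in Nras GFPhigh HSCs, against 1260, 2256 and 1686 in Nras GFP- HSCs. Its wild-type GFPhigh signals were 987, 1972 and 1072, against 862, 154 and 948 in wild-type GFP- HSCs. Kif23 thus stood lower in the mutant with an overlap and higher in wild-type HSCs without one, and its mean difference was -0.14 ± 0.66 (adjusted p = 0.964). The bundling protein Prc1 (-1.45) and the scaffold anillin (Anln, -1.26) were lower.

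**Figure D4:**
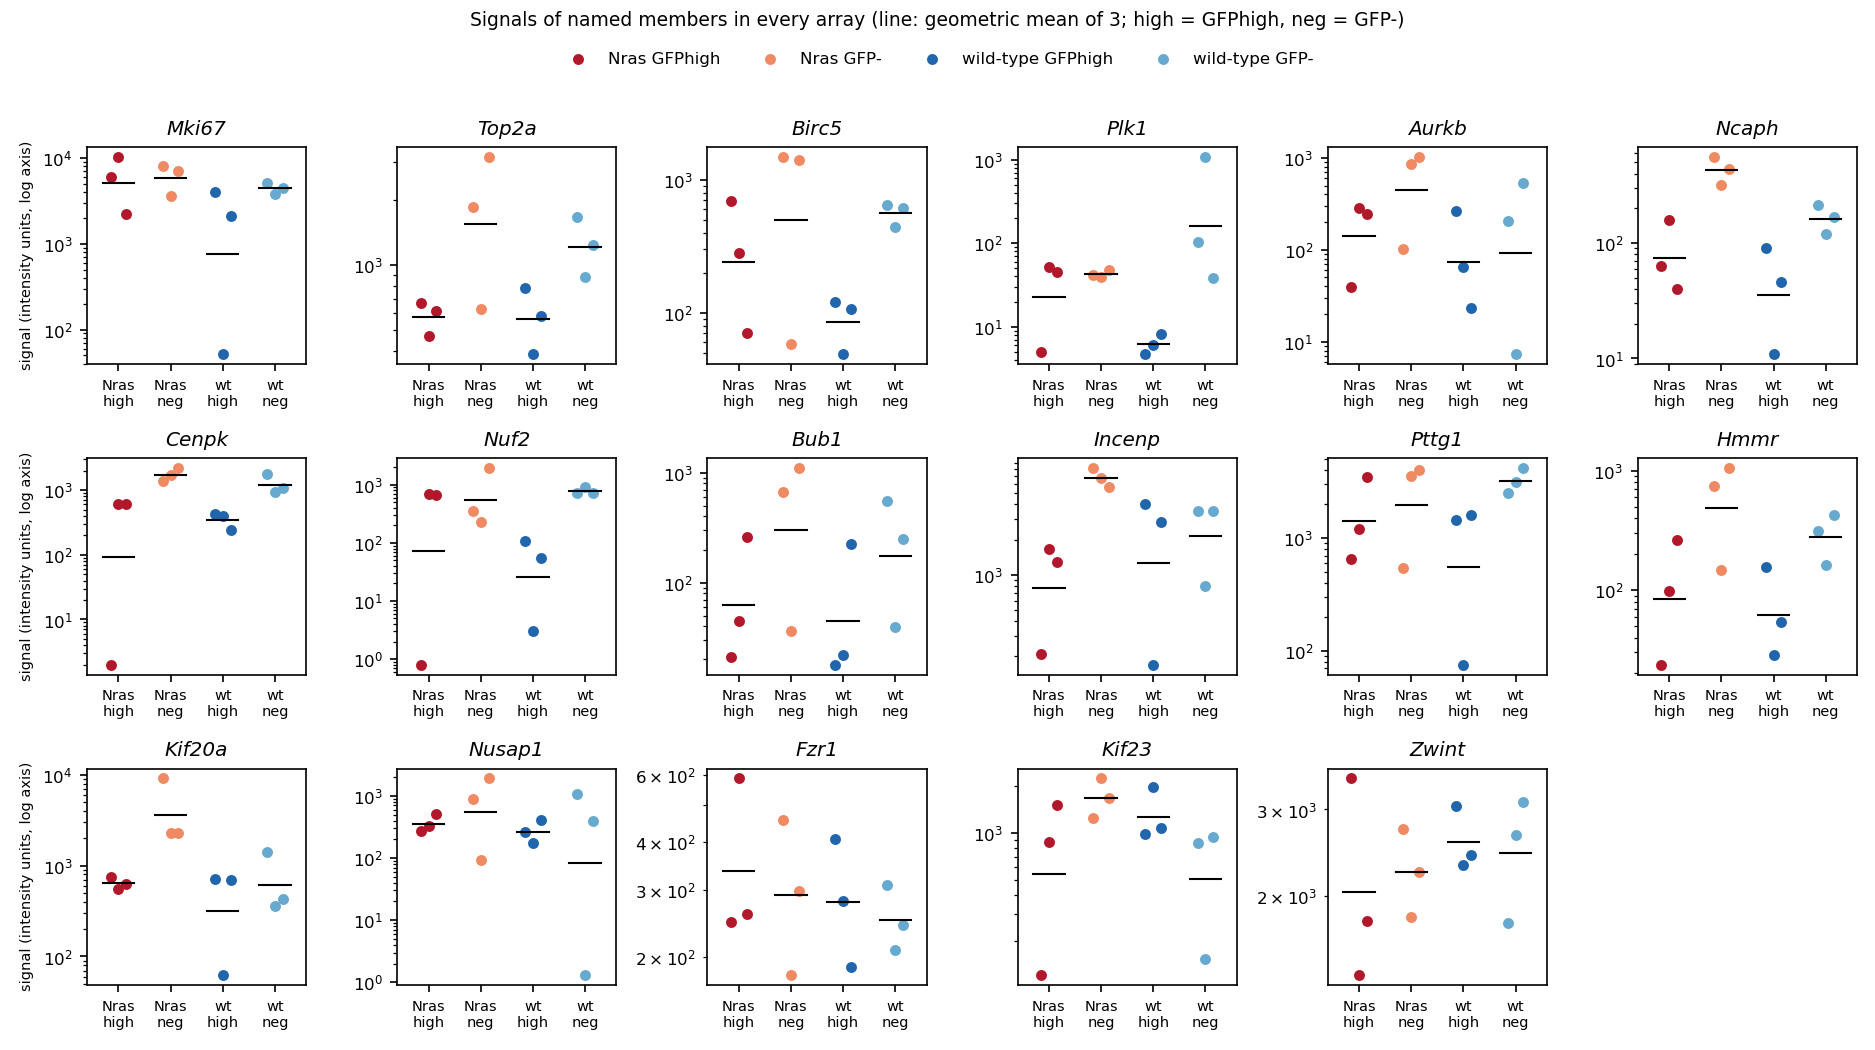
Signals in intensity units on a log axis (y axis) of 17 named members in Nras GFPhigh (dark red), Nras GFP- (orange), wild-type GFPhigh (dark blue) and wild-type GFP- HSCs (light blue), 1 point per array with a line at the geometric mean of 3. Ncaph and Cenpk have their groups apart in both genotypes, while Zwint and Fzr1 are intermixed.

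Within the genotypes the question was whether label-retaining HSCs differ from label-free HSCs with and without the mutation. In Nras HSCs 44 of 47 members were lower in GFPhigh cells (38.3% of all genes), with a median log2 difference of -1.40, against 0.327 for all genes, and 30 were below -1 (13.1%). At an unadjusted p under 0.05, 12 of 45 were lower (5.97%) and 0 higher (6.2%), and 0 passed after adjustment (0% of tested genes). The groups were apart in 7 members (Ncapd2, Ncaph, Cenpk, Cenpe, Incenp, Racgap1 and Kif20a), all lower (4.52%). The smallest p belonged to Ncapd2 (-3.34 ± 1.07, adjusted p = 0.272), Incenp (-3.14 ± 1.09, adjusted p = 0.307) and Tpx2 (-4.03 ± 1.42, adjusted p = 0.319). Tpx2 read 450, 37.1 and 6.7 in Nras GFPhigh HSCs, against 417, 836 and 1388 in Nras GFP- HSCs, and the groups overlapped at GFPhigh replicate 1. Its signals in wild-type GFPhigh HSCs were 380, 3085 and 105.4, against 621, 428 and 589 in wild-type GFP- HSCs. Without Nras GFPhigh replicate 3, 1 member passed, Ncapd2 with a log2 difference of -4.53 (adjusted p = 0.0475), as 1 of 161 genes called; Ncapd2 is 1 of the 6 members that fewer than 3 GFPhigh arrays carried past the filter. The median was -0.90 without Nras GFP- replicate 3 and -1 without the 4 low-weight arrays.

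In wild-type HSCs 42 of 47 members were lower in GFPhigh cells (52.5% of all genes), with a median of -1.12, against -0.042 for all genes, and 25 were below -1 (14.6%). At an unadjusted p under 0.05, 4 of 45 were lower (1.15%) and 0 higher (1.05%), and 0 passed after adjustment (0%). These 4 were Ncaph (-2.19 ± 0.90), Pttg1 (-2.52 ± 1.11), Birc5 (-2.71 ± 1.19) and Nuf2 (-4.90 ± 2.16), each with an adjusted p of 1 in limma. The groups were apart with GFPhigh lower in 12 members (5.72%), Top2a, Ncaph, Cenpk, Nuf2, Spc25, Cenpf, Birc5, Cdca8, Plk1, Pttg1, Hmmr and Kif18a, and with GFPhigh higher in 1, Kif23 (4.7%). Without wild-type GFP- replicate 2 the median was -1.69, and without wild-type GFPhigh replicate 2 it was -0.84.

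The 2 genotypes share no array in these comparisons. In both, 40 of the 47 members were lower, which is 40 of the 44 lower in Nras HSCs and of the 42 lower in wild-type HSCs (22.1% of all genes), and 17 were below -1 in both (2.98%). Groups were apart in both genotypes for Ncaph and Cenpk (2 of 47, against 0.467%). The interaction tested each member for a genotype difference, the label difference in Nras minus that in wild-type HSCs. Its median over the members was -0.30, against 0.32 for all genes, with 26 members below 0 (39.5%) and 21 above, and 0 of 45 passed, the lowest adjusted p being 0.956 (0% of tested genes). At an unadjusted p under 0.05 it was lower for 1 of 45, Kif23 at -2.98 ± 1.32 (2.25% of tested genes). Tpx2 had -3.91 ± 2.00 and Racgap1 -2.98 ± 1.93, each with an adjusted p of 0.956, so a genotype difference in the label comparison was not shown for any member. With median centring of the arrays 35 members lay below 0 and 12 above, and 59.4% of all genes lay below 0.

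**Figure D5:**
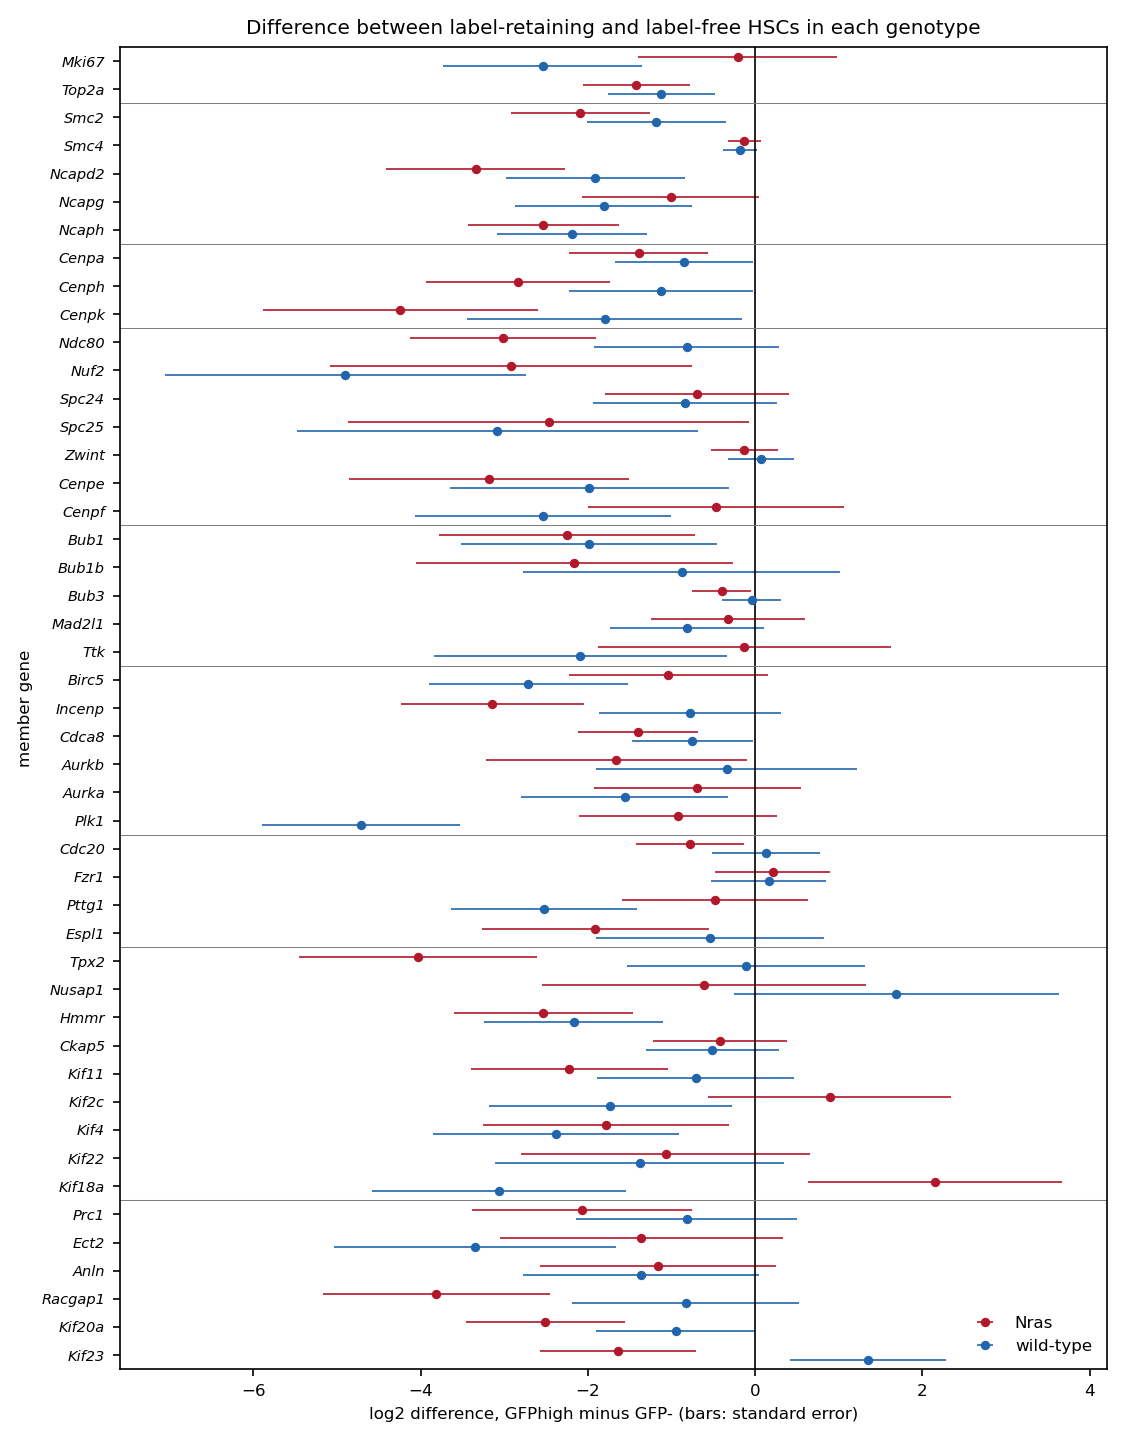
Log2 difference of GFPhigh minus GFP- HSCs (x axis) for each of the 47 members (y axis, by role) in Nras (red) and wild-type (blue) mice, with bars for the standard error. Most points of both colours lie left of 0, and 40 members have both points there.

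The mutant was also set against wild type within each population. In GFPhigh HSCs 25 members were higher in Nras (55.6% of all genes) and 22 lower (44.4%), with a median log2 difference of 0.10, against 0.142 for all genes. None passed (lowest adjusted p 0.479, 0% of tested genes), and at an unadjusted p under 0.05, 2 of 45 were lower (5.12%) and 1 was higher (3.17%). Ndc80 was lower, with the Nras GFPhigh signals of 9.3, 10.1 and 112 all under the wild-type GFPhigh signals of 249.5, 328 and 148 (-3.39 ± 1.11, adjusted p = 0.479), and it was 1 of 47 members lower with the groups apart (5.36%). Tpx2 read 450, 37.1 and 6.7 in Nras GFPhigh HSCs, against 380, 3085 and 105.4 in wild-type GFPhigh HSCs, with an overlap (-3.37 ± 1.42, adjusted p = 0.584). Mki67 was higher (2.75 ± 1.19, adjusted p = 0.588), and this value rests on wild-type GFPhigh replicate 2 at 51.6: without that array it was 0.81, and without the 4 low-weight arrays -0.40. These comparisons share the Nras GFPhigh arrays with the label comparison in the mutant, in which Ndc80 and Tpx2 also stood lower.

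In GFP- HSCs 27 members were higher in Nras and 20 lower (40.9% of all genes higher), with a median log2 difference of 0.42, against -0.189 for all genes, and with median centring 35 were higher and 12 lower, where 67.3% of all genes were higher. The members' median was -0.07 without wild-type GFP- replicate 2. None passed (lowest adjusted p 0.983, 0% of tested genes), and at an unadjusted p under 0.05, 1 of 45 was higher (0.968%). That member was Kif20a, at 9155, 2310 and 2270 in Nras GFP- HSCs, against 1420, 363 and 431 in wild-type GFP- HSCs (2.59 ± 0.95, adjusted p = 0.983). The groups were apart with Nras higher in 5 members (3.74%), Smc4, Ncaph, Incenp, Kif20a and Kif23. Smc4 had 0.38 ± 0.20 and Kif23 1.75 ± 0.93, each with an adjusted p of 0.983. Over both populations 30 members were higher in Nras and 17 lower (48% of all genes higher), with a median of 0.24, against -0.036, and with median centring 36 were higher, where 64.3% of all genes were. Again 0 of 45 members passed, with a lowest adjusted p of 0.579 (0.00828% of tested genes called). Ndc80 stood at -2.30 ± 0.78 (adjusted p = 0.579), Smc4 at 0.40 ± 0.14 (adjusted p = 0.594) and Kif20a at 1.80 ± 0.67 (adjusted p = 0.597).

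Other genes of mitosis, from lists chosen with earlier results of these data known, were read in GFPhigh against GFP- HSCs over both genotypes. Of these genes, 0 passed an adjusted p under 0.05. The counts below stand beside 42.4% of all genes that were lower in this comparison. At an unadjusted p under 0.05, 4.51% of tested genes were lower. Cdk1, the kinase of mitotic entry, the cyclins Ccna2, Ccnb2 and Ccnf and the phosphatases Cdc25b and Cdc25c, which activate Cdk1, were lower in 6 of 6 (median -1.33), with p under 0.05 for 2. Cdk1 itself read 107, 549 and 229.9 in Nras GFPhigh HSCs, against 565, 451 and 860.4 in Nras GFP- HSCs, with an overlap. Its wild-type GFPhigh signals were 149.6, 67.8 and 177, against 459, 440.5 and 472 in wild-type GFP- HSCs, and these groups were apart. Further centromere and kinetochore genes were lower in 24 of 29 (median -0.75), led by Spag5, a spindle and kinetochore protein (-3.79 ± 1.01, adjusted p = 0.365). Further spindle and cytokinesis genes were lower in 25 of 29 (median -0.71), with the centrosome kinase Nek2 at -2.77 ± 0.95 (adjusted p = 0.474). Condensin and cohesin genes outside the set were lower in 11 of 14 with a smaller median of -0.24, and APC/C subunits in 7 of 12 with -0.13. Cohesin and the APC/C also work outside mitosis.

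Markers of other cell types were read beside these results. In Nras HSCs 10 of 10 granulocyte markers were higher in GFPhigh cells (61.7% of all genes), with a median log2 difference of 3.99. Their summed signal was 5747 to 58392 in Nras GFPhigh HSCs, against 4306 to 4632 in Nras GFP- HSCs, and in wild-type HSCs it was 503 to 11789 in GFPhigh cells, against 2024 to 12832 in GFP- cells. In wild-type HSCs 7 of 10 granulocyte markers were lower in GFPhigh cells (52.5% of all genes). The part of these markers in the lower mitotic signals was not tested. Markers of endothelial and stromal cells summed to 2880 to 6004 in Nras GFPhigh HSCs, against 374 to 4184 in Nras GFP- HSCs, and to 671.5 to 1692 in wild-type GFPhigh HSCs, against 1826 to 2178 in wild-type GFP- HSCs. In Nras HSCs 8 of 9 were higher in GFPhigh cells (61.7% of all genes), with a median log2 difference of 1.65. In wild-type HSCs 6 of 9 were lower in GFPhigh cells (52.5% of all genes). B cell markers were higher in GFPhigh cells in 6 of 6 over both genotypes (median 1.26), against 57.6% of all genes. They were higher in 6 of 6 in Nras HSCs (61.7% of all genes) and in 5 of 6 in wild-type HSCs (47.5%). Their sum was 1046 to 3573 in Nras GFPhigh HSCs, against 217 to 1106 in Nras GFP- HSCs, and 456.5 to 1287 in wild-type GFPhigh HSCs, against 261.6 to 645 in wild-type GFP- HSCs. The part of B cell and stromal markers was not tested either. Over both genotypes, where 57.6% of all genes were higher in GFPhigh cells, so were 5 of 6 markers of monocytes and macrophages. For erythroid cells it was 3 of 6, for megakaryocytes 2 of 6 and for T and NK cells 5 of 7. Only 4 of the 6 B cell, 2 of the 6 monocyte and macrophage and 3 of the 7 T and NK cell markers were tested genes. No marker value of any list was 0.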

How the data were processed

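The data were 12 expression arrays, 3 from each of 4 HSC groups. The intensity values deposited by the authors were made with MAS5, per the submitters' processing notes, whose version is not recorded there. The platform's annotation put 34945 of the 45101 probe sets to 1 symbol, 932 to several and 9160 to none, and 64 control probe sets were left out. Of a gene's probe sets the brightest by mean log2 signal over the 12 arrays was used. The 3 values at 0 were set to a floor of 0.1, log2 was taken with no pseudocount, and genes above the array median on at least 3 arrays were tested (12083 of 18193).

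One model over all 4 groups was fitted with limma 3.58.1 in R 4.3.3 (lmFit and eBayes), and p-values were Benjamini-Hochberg adjusted over all tested genes in each of 7 comparisons. The procedure was tested on simulated data with less noise than these arrays, so that test does not show which differences could be found here. The number of arrays limits the precision. The members and gene lists were chosen with earlier results of these data known. Values in every sample are given for Mki67, Top2a, Birc5, Plk1 and Aurkb, the member of smallest p in each of 9 roles, the 3 of smallest p in each other comparison, and the 4 of largest p in the label comparison. Of 163 genes on the other lists, 148 were measured. No 2 arrays held identical values (0 pairs). Promoters are from RefSeq, GRCm38.p6, and were searched with Python 3.11.15. Alternatives were array weights, quantile normalization, median centring, pseudocounts of 100 or 15.5 (the 25th percentile), other filters and thresholds, other probe set rules, the replicate block, and arrays left out.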

Additional observations from a re-analysis of the deposited data

How the results depend on the processing

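The lower member signals in GFPhigh HSCs kept their direction as a median under every alternative run: between -1.66 and -0.92 over both genotypes (26 alternatives), between -1.69 and -0.69 in wild-type HSCs (27) and between -1.94 and -0.88 in Nras HSCs (27). The median of Nras against wild type changed sign among the alternatives in GFPhigh HSCs (-0.23 to 0.66), in GFP- HSCs (-0.07 to 1.02), over both populations (-0.02 to 0.62) and in the interaction (-0.94 to 0.24). Of 1279 alternative values for named members, counts and medians, 27 values of named members turned direction, in 7 members. The sign changes of medians given above were not counted among these 27. Nusap1 became -0.02 with array weights, -0.05 and -0.37 with pseudocounts at the 25th percentile and of 100, -0.08 as a mean over probe sets and -0.94 in replicate 3 alone. Zwint became 0.01 with array weights and 0.13 in replicates 1 and 2. Kif23 became 0.02 with quantile normalization, 0.45 as a mean over probe sets, 0.34 without the low-weight arrays and 0.01 in replicate 3 alone. Aurkb became 0.14 in replicates 1 and 2, Fzr1 -0.28 in replicate 3 alone, Smc4 in Nras against wild-type GFP- HSCs -0.10 as a mean over probe sets, and Mki67 in Nras against wild-type GFPhigh HSCs -0.40 without the low-weight arrays. Leaving out each array in turn gave -0.95 to 1.47 for Nusap1, -0.22 to 0.11 for Zwint, -0.57 to 0.40 for Kif23, -0.02 to 0.35 for Fzr1, and 0 to 1 members called in Nras HSCs. The cause of these turns was not tested. With the replicate number as a block, 0 members were called in each of the 7 comparisons and the medians stayed at -1.45, -1.12 and -1.40 in the label comparisons. Deviations of same-numbered samples correlated at -0.044 to 0.152 (18 pairs), against -0.119 to 0.073 for other numbers (36 pairs, 0 over 0.1). The 3 pairs over 0.1 were all between replicate 3 samples, which also share their Xist level, and 11 of 12 arrays correlated best with an array of their own number. This is a hint from the data and not the design that the numbers tie samples, and since not every pair was over 0.1 the block was kept as an alternative. Members near array background, such as Plk1, have readings of a few units whose log2 values are the least certain.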

Other observations

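Of 8 measured HSC markers, 5 had higher means in GFPhigh than in GFP- HSCs over both genotypes (57.6% of all genes) and 3 lower means (42.4%). Their median log2 difference was 0.06, and 0 passed an adjusted p under 0.05 in limma (0% of tested genes). At an unadjusted p under 0.05, 3 were higher (4.36% of tested genes) and 1 was lower (4.51%). Procr and Cd34 had the smallest p of the 8. Cd34, a sialomucin of active progenitors, read 86.2, 433 and 1578 in Nras GFPhigh HSCs, against 1343, 3987 and 3182 in Nras GFP- HSCs. In wild-type GFPhigh HSCs Cd34 read 417, 1506 and 805, against 3537, 2987 and 2050 in wild-type GFP- HSCs. The wild-type groups were apart and the Nras groups overlapped at GFPhigh replicate 3, with a log2 difference of -2.27 ± 0.63 (SE, adjusted p = 0.407). Procr, the endothelial protein C receptor that marks HSCs, read 5916, 7777 and 4766 in Nras GFPhigh HSCs, against 1473, 2753 and 3013 in Nras GFP- HSCs, with the groups apart. In wild-type HSCs Procr read 5135, 8405 and 3408 in GFPhigh cells, against 3280, 3707 and 3923 in GFP- cells, with an overlap, and the adjusted p over both genotypes was 0.341.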
